A study of Mus musculus with 9 samples.

Results

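The 45 genes described here drive or mark cell division. They were chosen by name for their role in the cell cycle, not by a threshold on measured values, but with earlier results of these data known. They are 45 of 51912 genes in the table of counts. Of them, 23 are grouped here as mitotic genes and 22 as S-phase genes, S phase being the stage of DNA replication. The S-phase class also holds genes of origin licensing and of entry into S phase, which act before it. All 45 were matched to 1 Ensembl gene each, and all 45 passed the filter on low counts, which kept 17289 genes.

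RNA was sequenced from organoids, epithelial fragments taken from mammary tumours of FVB/NJ mice that carry the MMTV-PyMT transgene, a viral oncogene under a mammary tumour virus promoter. All samples carried MMTV::PyMT and the membrane colour reporter (R26)pCA::mT/mG. The WT group (4 samples) was Cdh1+/+ and the E-cad-KO group (5 samples) Cdh1fl/fl, Cdh1 being the gene of the adhesion protein E-cadherin. Both groups received adeno-Cre overnight, and both then spent 48 h in collagen I with FGF2, so the virus and the culture are shared by the controls. Cre was delivered to isolated tissue and need not reach every cell, whole gels were lysed, and ages and animals are not named, so a p-value here speaks to the spread among these 9 samples, which may be technical.

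Library totals ran from 44890302 to 64763645 counts, and the members held between 511 (Cdt1) and 29288 (Mki67) counts in a library. Cdh1, the targeted gene, fell from 189.3 ± 44.1 CPM (counts scaled to library size; SD, n = 4) to 91.3 ± 15.4 CPM (SD, n = 5), a log2 fold change of -1.05 (SE 0.16, adjusted p = 0.0275). E-cad-KO 2 kept the most Cdh1 of its group, 118.3 CPM. The 7 epithelial markers summed to between 3124 and 4320 CPM in WT and between 3911 and 4955 CPM in E-cad-KO. Of these 7 markers 6 had a positive log2 fold change, 4 at an unadjusted p under 0.05 and none called (median 0.34, smallest adjusted p = 0.0511). The 14 macrophage markers summed to 382.2 to 549.3 CPM in WT and 347.4 to 416 CPM in E-cad-KO, and 10 fibroblast markers to 992.8 to 2172 CPM and 1317 to 1809 CPM. Cd14 made up most of the first sum in every library but WT 4 (166.6 CPM there), and Postn most of the second in all of them. Lyz2, another macrophage marker, ran from 10.8 CPM in WT 1 to 307.5 CPM in WT 4 and from 16.3 to 122 CPM in E-cad-KO. Of 13 macrophage markers tested 11 were negative (median -0.57), as were 7 of 10 fibroblast markers (median -0.15) and 7 of 7 endothelial markers (median -0.65, 2 at an unadjusted p under 0.05), with none called. The 5 myoepithelial markers summed to 2352 to 11460 CPM in WT and 3442 to 7783 CPM in E-cad-KO. Of them 4 were negative (median -0.36) and none was called. The part of these shifts in the members' values was not tested. Fits with a macrophage or a fibroblast score as covariate are given below with their limit. In addition, 7 lymphocyte markers stayed under 0.402 CPM in sum in every library. WT 4 had the highest macrophage sum and WT 1 the lowest fibroblast sum.

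Division is run by waves of transcription. E2F factors switch on the enzymes of DNA replication as a cell leaves G1, and are held in check by the retinoblastoma family until cyclin-dependent kinases release them. The genes of mitosis peak later, in G2 and M, under a complex of B-MYB, the MuvB core and FOXM1 that binds an element called the CHR (cell cycle genes homology region). In mammary tumours the protein of Mki67, Ki-67, is the usual stain for cycling cells. In bulk RNA fewer dividing cells and less RNA per dividing cell cannot be told apart.

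Promoter sequences of the members were searched for both elements. The RefSeq table (GRCm38.p6) held 39 promoters of 37 members, each from 250 bases before to 50 after a start site. Aurkb, Ccna2, Ccne2, Foxm1, Gins2, Kif20a, Mcm4 and Tpx2 had no entry. The CHR was searched as TTTGAA on both strands. It lay in 13 of 18 mitotic promoters (72.2%) and 3 of 21 S-phase promoters (14.3%), against 17.9% of all 32851 promoters in the table. The E2F motif was searched as TTTCCCGC, TTTGGCGC, TTTCGCGC or TTTGCCGC on both strands, where a match on one strand can overlap a match on the other. It lay in 8 of 21 S-phase promoters (38.1%) and 1 of 18 mitotic promoters (5.56%), against 2.26% of all. These matches describe letters in a window and do not show binding.

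The 250 bases before the start site are shown for 6 members, to let the elements of the mitotic class (Mki67, Top2a, Cdk1), those of the S-phase class (Mcm6, Pola1) and a called gene with neither (Rfc4) be compared. Capitals mark a CHR in Mki67 and Top2a, an E2F motif in Mcm6 and Pola1, and both kinds in Cdk1. The regions, on GRCm38.p6, are Mki67 (chr7:135716380-135716629, minus strand), Top2a (chr11:99024190-99024439, minus strand), Cdk1 (chr10:69352913-69353162, minus strand), Mcm6 (chr1:128359706-128359955, minus strand), Pola1 (chrX:93632156-93632405, minus strand) and Rfc4 (chr16:23127731-23127980, minus strand).
Mki67: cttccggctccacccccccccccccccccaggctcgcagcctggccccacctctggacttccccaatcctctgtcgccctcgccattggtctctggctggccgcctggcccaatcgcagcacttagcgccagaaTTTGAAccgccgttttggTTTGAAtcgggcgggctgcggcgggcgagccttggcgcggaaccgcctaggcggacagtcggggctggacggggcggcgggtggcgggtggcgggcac
Top2a: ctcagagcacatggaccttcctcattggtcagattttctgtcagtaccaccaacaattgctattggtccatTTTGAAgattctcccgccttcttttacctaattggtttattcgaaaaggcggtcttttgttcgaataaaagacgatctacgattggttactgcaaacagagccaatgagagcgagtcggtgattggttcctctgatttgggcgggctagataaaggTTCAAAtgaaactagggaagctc
Cdk1: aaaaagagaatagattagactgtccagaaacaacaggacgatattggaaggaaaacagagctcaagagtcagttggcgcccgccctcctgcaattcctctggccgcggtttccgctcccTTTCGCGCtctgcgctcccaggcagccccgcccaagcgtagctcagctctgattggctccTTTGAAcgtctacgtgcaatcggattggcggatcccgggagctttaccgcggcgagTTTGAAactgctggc
Mcm6: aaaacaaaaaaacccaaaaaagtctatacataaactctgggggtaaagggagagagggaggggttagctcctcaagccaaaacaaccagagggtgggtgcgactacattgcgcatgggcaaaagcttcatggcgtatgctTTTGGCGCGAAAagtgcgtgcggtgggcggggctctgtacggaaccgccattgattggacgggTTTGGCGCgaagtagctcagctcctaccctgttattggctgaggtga
Pola1: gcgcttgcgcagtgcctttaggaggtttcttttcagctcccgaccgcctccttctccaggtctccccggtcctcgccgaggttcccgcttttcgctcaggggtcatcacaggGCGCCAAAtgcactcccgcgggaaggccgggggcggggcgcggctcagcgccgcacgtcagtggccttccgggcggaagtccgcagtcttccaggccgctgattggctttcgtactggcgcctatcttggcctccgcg
Rfc4: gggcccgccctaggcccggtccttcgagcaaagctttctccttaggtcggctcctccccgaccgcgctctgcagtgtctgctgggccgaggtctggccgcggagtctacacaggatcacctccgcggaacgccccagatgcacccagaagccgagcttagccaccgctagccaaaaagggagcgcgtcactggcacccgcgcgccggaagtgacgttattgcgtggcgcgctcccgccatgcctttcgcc

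In Mki67 the CHR began 116 and 98 bases before the start site, and in Top2a 179 and 23 bases before it. Cdk1 held an E2F motif 131 bases before the start and a CHR at 71 and 15 bases before it. Mcm6 had E2F motifs beginning at 110, 106 and 47 bases, of which the first and the second overlap on opposite strands. In Pola1 the single E2F motif began 138 bases before the start.

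Few members differed between the genotypes beyond the spread of the libraries. By edgeR 2 of 45 members were called (adjusted p under 0.05), both S-phase genes and both lower in E-cad-KO: Gins2 and Rfc4. That is 4.44% of members, beside 0.503% of all tested genes called lower and 1.41% called in either direction. At an unadjusted p under 0.05, 10 members were lower (22.2%, against 7.99% of all tested genes) and 0 were higher (against 8.74%). The log2 fold change was negative for 37 of 45 members (82.2%, against 52.0% of all tested genes). The median was -0.12 over the members and -0.01 over all genes tested. Genes of one cycle vary together, so these shares do not rest on 45 separate observations, and leaving out 1 library at a time gave 33 to 40 negative members.

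Called members were found among the S-phase genes. The 22 S-phase genes had a median log2 fold change of -0.12 (range -0.48 to 0.18), with 19 negative. At an unadjusted p under 0.05, 8 were lower (36.4%, against 7.99% of all tested genes) and 0 higher. Of the class 2 were called (9.09%, against 0.503% of all tested genes called lower). The 23 mitotic genes had a median of -0.10 (range -0.29 to 0.12), with 18 negative and 0 called by edgeR. Leaving out 1 library moved the mitotic median between -0.03 (without E-cad-KO 3, with 14 negative) and -0.17 (without E-cad-KO 5), and the S-phase median between -0.08 (without E-cad-KO 2) and -0.18 (without WT 1). In the mitotic class 2 genes, Mki67 and Bub1b, were at an unadjusted p under 0.05 (8.7%), a share near that of all tested genes. DESeq2, which called 1206 of 17289 genes, called 1 mitotic gene, Mki67 (adjusted p = 0.0423). With limma-voom, which called 511 genes, 0 mitotic genes were called. Whether the classes differ from each other was not tested.

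**Figure D1:**
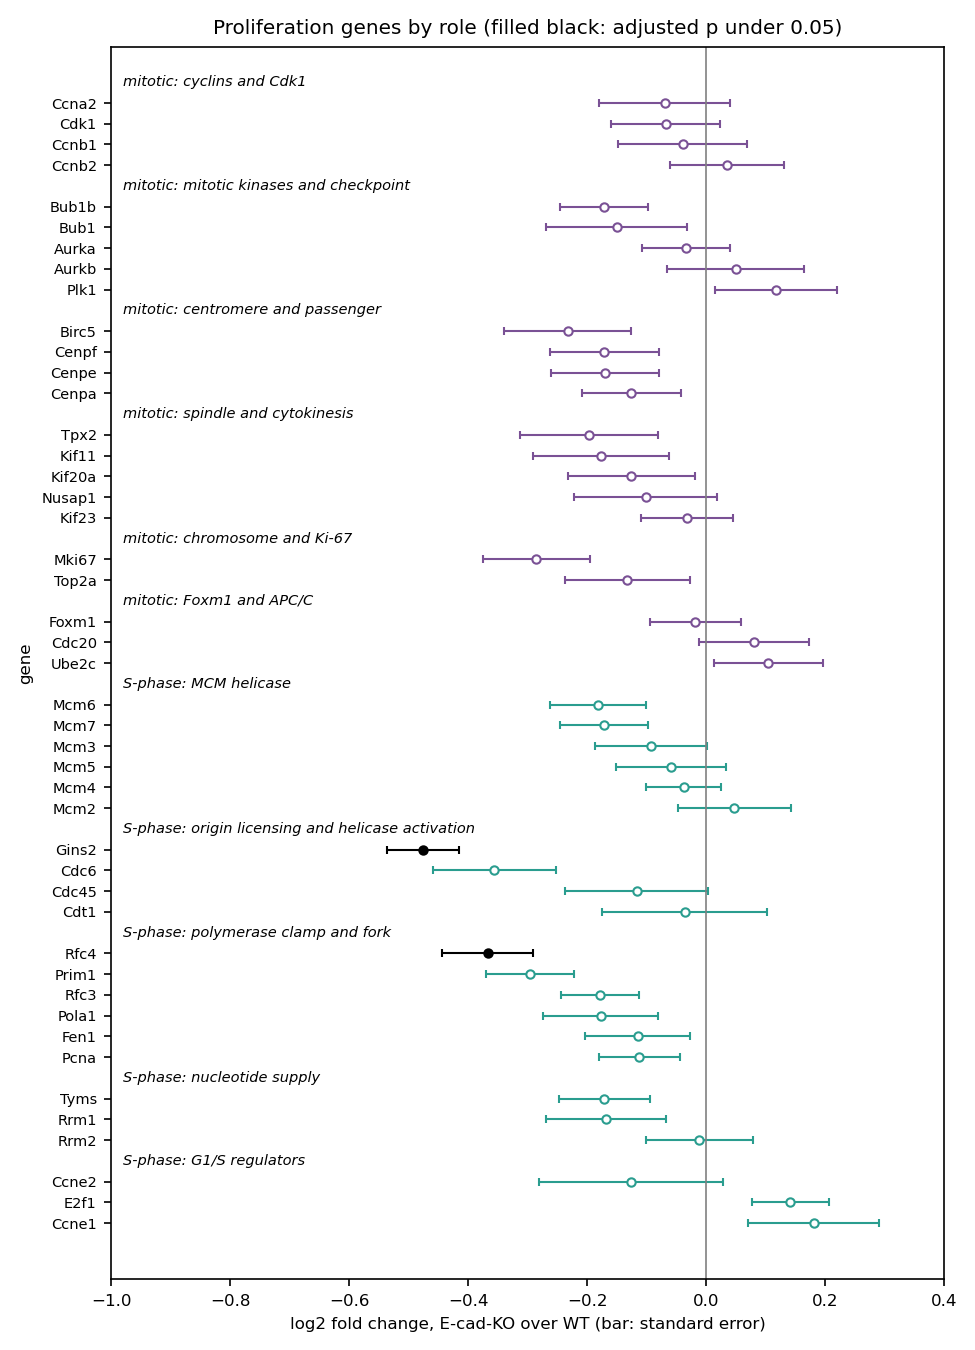
Log2 fold change of E-cad-KO over WT for each of the 45 genes by role, with its standard error (x axis, edgeR; n = 4 WT and n = 5 E-cad-KO). Filled black points are the called genes, Gins2 and Rfc4; 37 of the 45 points lie left of 0, and most lie within 0.2 of it.

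**Figure D2:**
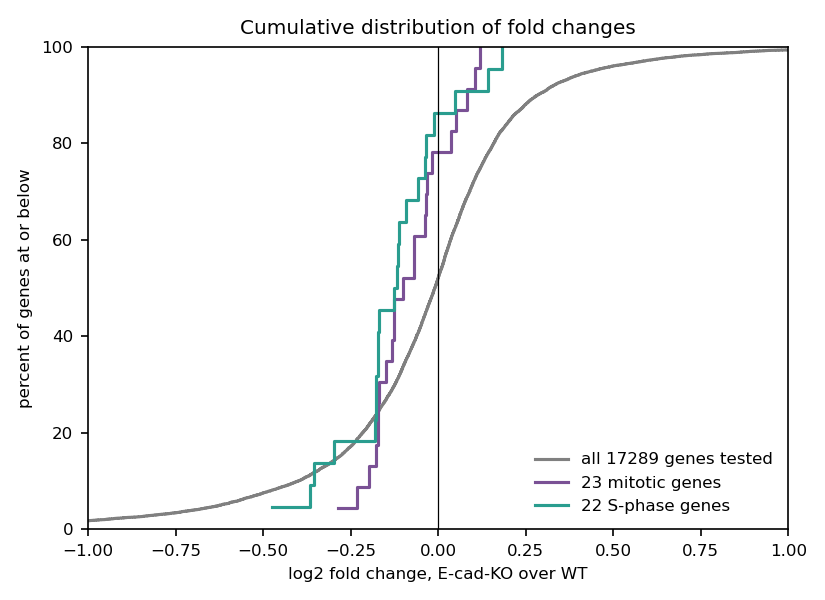
Percent of genes (y axis) at or below each log2 fold change (x axis) for the 23 mitotic genes, the 22 S-phase genes and the 17289 genes tested, drawn from -1 to 1. Both member curves run left of the grey one near 0, with medians of -0.10 and -0.12 against -0.01.

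Among the S-phase genes, origin licensing and helicase activation held the largest difference. Gins2 encodes a subunit of GINS, which joins Cdc45 and the MCM ring to form the replicative helicase. It stood at 33.5, 34.8, 33.0 and 29.3 CPM in WT 1 to 4, and at 24.0, 22.8, 23.6, 23.4 and 23.6 CPM in E-cad-KO 1 to 5. Every E-cad-KO library lay below every WT library, and the E-cad-KO values kept to a narrow range (SD 0.448 CPM). Gins2 fell by 0.48 on the log2 scale, to 0.719 of the WT level (SE 0.06, adjusted p = 0.011). The call was lost without WT 3 (adjusted p = 0.0643) and held in the other 8 fits that left out 1 library. It was also lost with the replicate number as a block (adjusted p = 0.125), a fit that called 0 genes.

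Features of the locus bear on how Gins2 can be read. It lies on chromosome 8 (120578633 to 120589304, minus strand), 14.0 Mb from the start of Cdh1, on the chromosome that carries the floxed alleles. Alleles linked to Cdh1 and the loss of E-cadherin cannot be told apart here. Of its exons, 2758 bases overlap Gse1 on the other strand, and the strand setting of the counting is not given in the sources used here. Gse1 itself had a log2 fold change of 0.04 (SE 0.10, adjusted p = 0.896). The other members on chromosome 8, Mcm5 and Cdt1, stood at -0.06 and -0.04. The other GINS subunit genes, named after their values were seen, stood at -0.20 (Gins1), -0.03 (Gins3) and -0.07 (Gins4), none of them called.

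Cdc6, shown by library after its values were seen, is the gene of a factor that with Cdt1 loads the MCM ring onto origins. It stood at 19.9, 23.2, 24.3 and 21.5 CPM in WT and at 18.1, 14.6, 15.8, 20.4 and 18.0 CPM in E-cad-KO. Only E-cad-KO 4 reached into the WT range. Its log2 fold change of -0.36 (SE 0.10) was not called by edgeR (adjusted p = 0.115). DESeq2 called it, as did edgeR with a macrophage score as covariate. These 2 fits called 1206 and 1210 genes, against 244 in the main fit. Cdc45, the helicase partner of GINS, stood at -0.12 (SE 0.12) and Cdt1 at -0.04 (SE 0.14), with overlapping groups.

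All 6 genes of the replication fork had negative values. Rfc4 encodes a subunit of replication factor C, which loads the PCNA clamp. It held 32.7, 31.7, 30.8 and 32.7 CPM in WT and 25.7, 21.5, 23.4, 25.5 and 28.0 CPM in E-cad-KO. The groups did not overlap, and E-cad-KO 5 came nearest to WT. Rfc4 fell by 0.37 on the log2 scale, to 0.775 of WT (SE 0.08, adjusted p = 0.0482). With 1 library left out it was called in 0 of 9 fits, with values from -0.41 to -0.32. It overlaps 194 bases of Eif4a2, an abundant gene on the other strand that stood at -0.04 (SE 0.09).

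Prim1, the catalytic subunit of primase, which starts each DNA strand with an RNA primer, was the only other member without overlap. It stood at 50.5, 52.5, 53.4 and 51.7 CPM in WT and at 41.3, 37.1, 40.0, 47.2 and 46.2 CPM in E-cad-KO. The highest E-cad-KO library lay below the lowest WT library, but the log2 fold change of -0.30 (SE 0.07) was not called (adjusted p = 0.0798). The 3 members without overlap, Gins2, Rfc4 and Prim1, are 6.67% of members, all lower, beside 3.83% of all tested genes.

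Pcna, the sliding clamp itself, held 211.1, 238.1, 219.7 and 235.2 CPM in WT and 202.3, 193.8, 198.5, 217.5 and 233.5 CPM in E-cad-KO. Of the E-cad-KO libraries, 3 lay below all WT libraries and 2 within their range. Its log2 fold change was -0.11 (SE 0.07, adjusted p = 0.448). Rfc3, another loader subunit, stood at -0.18 (SE 0.07), Pola1, the catalytic subunit of DNA polymerase alpha, at -0.18 (SE 0.10), and the flap endonuclease gene Fen1 at -0.12 (SE 0.09). None of these was called.

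**Figure D3:**
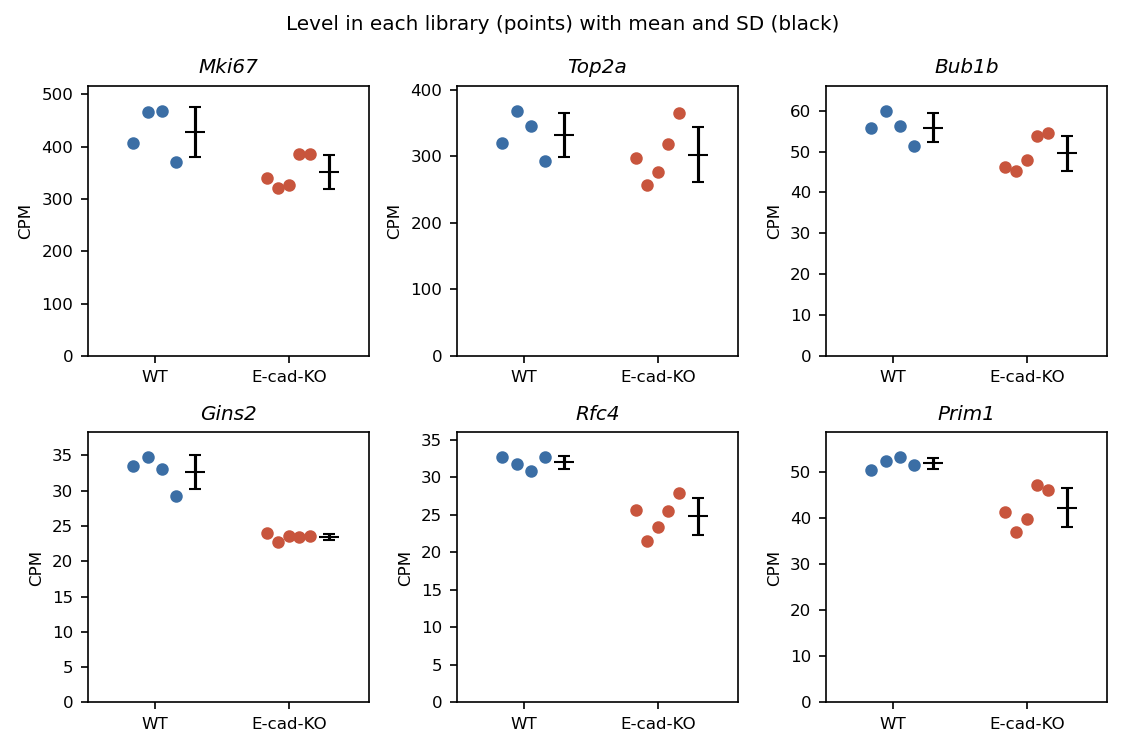
CPM in each library (points, WT blue and E-cad-KO red) for 3 mitotic genes (top) and 3 S-phase genes (bottom), with mean and SD in black (n = 4 and n = 5). The groups overlap for Mki67, Top2a and Bub1b and do not overlap for Gins2, Rfc4 and Prim1.

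The MCM ring, 6 proteins that unwind DNA together, was not called for any of its genes. Its log2 fold changes were -0.18 for Mcm6 (SE 0.08), -0.17 for Mcm7 (SE 0.07), -0.09 for Mcm3, -0.06 for Mcm5, -0.04 for Mcm4 and 0.05 for Mcm2. Mcm2, a common marker of cells licensed to replicate, held 37.1, 42.0, 40.7 and 29.8 CPM in WT and 39.7, 36.0, 39.4, 37.2 and 41.0 CPM in E-cad-KO. The E-cad-KO libraries all fell inside the WT range, which WT 4 extended downwards. Without WT 4 the Mcm2 value was -0.05.

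Genes of nucleotide supply were not called. Thymidylate synthase (Tyms), which makes dTMP, stood at -0.17 (SE 0.08), the large ribonucleotide reductase subunit gene Rrm1 at -0.17 (SE 0.10) and the small subunit gene Rrm2 at -0.01 (SE 0.09). Rrm2 averaged 47.6 ± 6.68 CPM over the WT libraries and 47.2 ± 2.52 CPM over the E-cad-KO libraries (SD; n = 4, n = 5).

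None of the 3 regulators of the G1/S switch was called, and their values had both signs. E2f1, an activating E2F, averaged 26.1 ± 2.24 CPM over the WT libraries and 28.8 ± 0.359 CPM over the E-cad-KO libraries (SD; n = 4, n = 5), a log2 fold change of 0.14 (SE 0.06, adjusted p = 0.303). Ccne1, a cyclin that drives entry into S phase, had the most positive value of all members, 0.18 (SE 0.11, adjusted p = 0.45). It held 11.1, 12.9, 14.7 and 12.8 CPM in WT and 15.5, 12.0, 15.4, 13.9 and 16.1 CPM in E-cad-KO, with overlap. Its relative Ccne2 stood at -0.13 (SE 0.15), overlapping Ints8 on the other strand.

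In the mitotic class the largest difference was in Mki67, whose protein coats mitotic chromosomes. It held 407.2, 466.6, 469.1 and 371.2 CPM in WT and 339.3, 320.9, 326.1, 385.3 and 386.6 CPM in E-cad-KO. E-cad-KO 1, 2 and 3 lay below every WT library, while E-cad-KO 4 and 5 lay above WT 4. The log2 fold change was -0.29 (SE 0.09), 0.821 of the WT level, and was not called (adjusted p = 0.145). Top2a, the topoisomerase that untangles sister chromatids, held 319.4, 368.7, 345.7 and 293 CPM in WT and 297, 256.6, 275.7, 318.2 and 365.4 CPM in E-cad-KO. E-cad-KO 2 and 3 lay below every WT library and the other E-cad-KO libraries within the WT range (log2 fold change -0.13, SE 0.11, adjusted p = 0.585).

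Cyclins and Cdk1, the engine of entry into mitosis, had values between -0.07 and 0.04 and were not called. Ccnb1 stood at -0.04 (SE 0.11), Ccnb2 at 0.04 (SE 0.10), Ccna2, which also acts in S phase, at -0.07 (SE 0.11) and Cdk1 at -0.07 (SE 0.09). Cdk1 averaged 145.1 ± 11.2 CPM over the WT libraries and 138.4 ± 16.8 CPM over the E-cad-KO libraries (SD; n = 4, n = 5).

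Among mitotic kinases and the spindle checkpoint the signs were mixed. The checkpoint gene Bub1b held 55.7, 60.1, 56.3 and 51.3 CPM in WT and 46.3, 45.3, 48.0, 53.8 and 54.5 CPM in E-cad-KO, so that E-cad-KO 4 and 5 reached the WT range (-0.17, SE 0.07, adjusted p = 0.273). Its partner Bub1 stood at -0.15 (SE 0.12), the spindle pole kinase gene Aurka at -0.03 (SE 0.07) and the centromere kinase gene Aurkb at 0.05 (SE 0.12). Plk1, a kinase of spindle assembly and cytokinesis, had the most positive value of the class, 0.12 (SE 0.10, adjusted p = 0.624). It held 16.5, 15.96, 20.4 and 14.5 CPM in WT and 18.3, 16.7, 17.2, 19.9 and 19.2 CPM in E-cad-KO, all within the WT range.

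Centromere and passenger genes were negative for 4 of 4 and not called. Birc5 (survivin), which carries Aurora B to the centromere, held 97.6, 99.7, 105.1 and 105.2 CPM in WT and 85.0, 67.5, 83.5, 106.3 and 91.2 CPM in E-cad-KO. E-cad-KO 2 was lowest and E-cad-KO 4 highest of all libraries (-0.23, SE 0.11, adjusted p = 0.308). The centromeric histone gene Cenpa stood at -0.13 (SE 0.08), the kinetochore motor gene Cenpe at -0.17 (SE 0.09) and Cenpf at -0.17 (SE 0.09).

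Spindle and cytokinesis genes were negative for 5 of 5, again with none called. They were Tpx2, which nucleates spindle microtubules (-0.20, SE 0.12), the motor genes Kif11 (-0.18, SE 0.11), Kif20a (-0.13, SE 0.11) and Kif23 (-0.03, SE 0.08), and Nusap1 (-0.10, SE 0.12). The transcription factor gene Foxm1 stood at -0.02 (SE 0.08). Genes of the anaphase-promoting complex pathway, which ends mitosis by destroying cyclin B, were on the positive side in this fit and not called. Ube2c, its ubiquitin-conjugating enzyme, stood at 0.10 (SE 0.09) and Cdc20, its activator, at 0.08 (SE 0.09). WT 4 was the lowest library for both (55.6 and 27.9 CPM). Each turned negative in 1 of 19 alternative fits (-0.02 for Ube2c and -0.03 for Cdc20).

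The levels themselves spanned a wide range. Per kilobase of the longest coding transcript, Pcna was highest in WT (148.9 CPM per kb), followed by Top2a (63.5), Rrm1 (53.9), Cenpa (50.9) and Mki67 (42.6). Cdc6 (4.82), Foxm1 (5.15) and Cdt1 (5.60) were lowest. These levels per kilobase depend on which transcript is taken as the length.

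Libraries of the same genotype also differed from each other. A score was formed for each library as the average, over the genes of a class, of log2 CPM minus that gene's own mean in all 9 libraries. The mitotic scores were -0.01, 0.12, 0.14 and -0.06 in WT 1 to 4 and -0.03, -0.23, -0.17, 0.08 and 0.15 in E-cad-KO 1 to 5. The lowest and the highest library were both E-cad-KO. E-cad-KO 2 and 3 lay below every WT library, E-cad-KO 5 above every WT library, and E-cad-KO 1 and 4 within the WT range. The S-phase scores were -0.01, 0.12, 0.15 and 0.03 in WT and -0.04, -0.18, -0.11, -0.01 and 0.04 in E-cad-KO. Here the highest library was WT 3 and the lowest E-cad-KO 2, with E-cad-KO 4 and 5 inside the WT range.

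**Figure D4:**
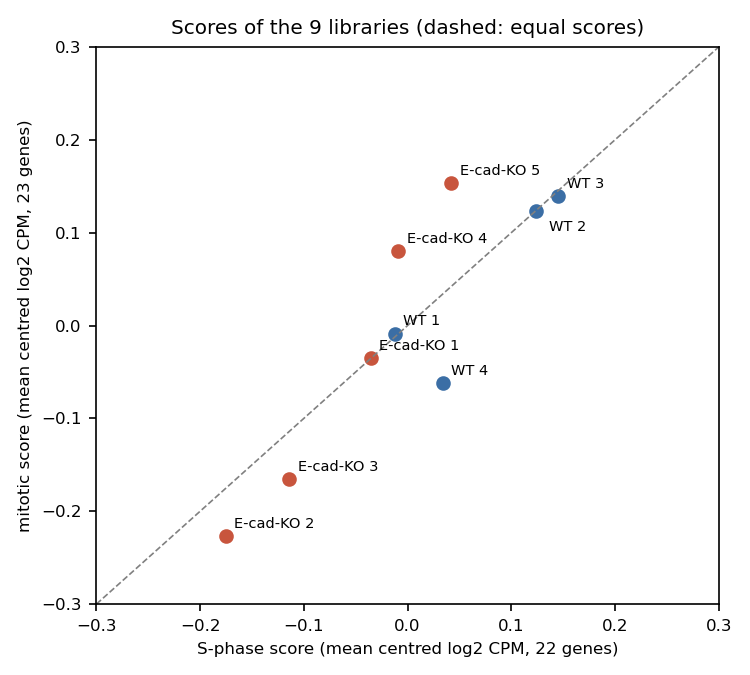
Mitotic score (y axis) against S-phase score (x axis) of each library, as mean centred log2 CPM; the dashed line marks equal scores. E-cad-KO 2 and 3 lie lowest on both axes, WT 2 and WT 3 lie high on both, and E-cad-KO 4 and 5 lie above the line.

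Gene by gene the same libraries stood out. E-cad-KO 2 was the lowest library for 25 of 45 members and E-cad-KO 3 for 7. WT 2 and WT 3 were each highest for 15, and E-cad-KO 5 for 8. Of the 23 mitotic genes, 23 were below their own mean in E-cad-KO 2 and 21 in E-cad-KO 3, but only 1 in E-cad-KO 4 and 1 in E-cad-KO 5. E-cad-KO 4 and 5 had mitotic scores 0.09 and 0.11 above their S-phase scores, and WT 4 a mitotic score 0.10 below. E-cad-KO 4 and 5 also had the highest macrophage scores of their group (0.77 and 1.12), and WT 4 the highest of all (1.96). E-cad-KO 2 and 3 had the highest epithelial scores of their group (0.33 and 0.16). The myoepithelial sums, mostly Krt14, were 6434 and 7783 CPM in E-cad-KO 2 and 3 and 3442 to 3760 CPM in E-cad-KO 1, 4 and 5. In WT these sums ran from 11460 CPM (WT 1) to 2352 CPM (WT 4). With the macrophage score as covariate the medians were -0.105 (mitotic) and -0.1147 (S-phase). With the fibroblast score they were -0.1021 and -0.1211, against -0.101 and -0.121 in the main fit. Both scores differed little between the groups (E-cad-KO minus WT -0.11 for macrophage and 0.01 for fibroblast), so these fits could hardly move a group difference. The epithelial, myoepithelial and endothelial scores, which differed by 0.22, -0.29 and -0.57, were not fitted. The part of cell content in the members' values was not tested.

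**Figure D5:**
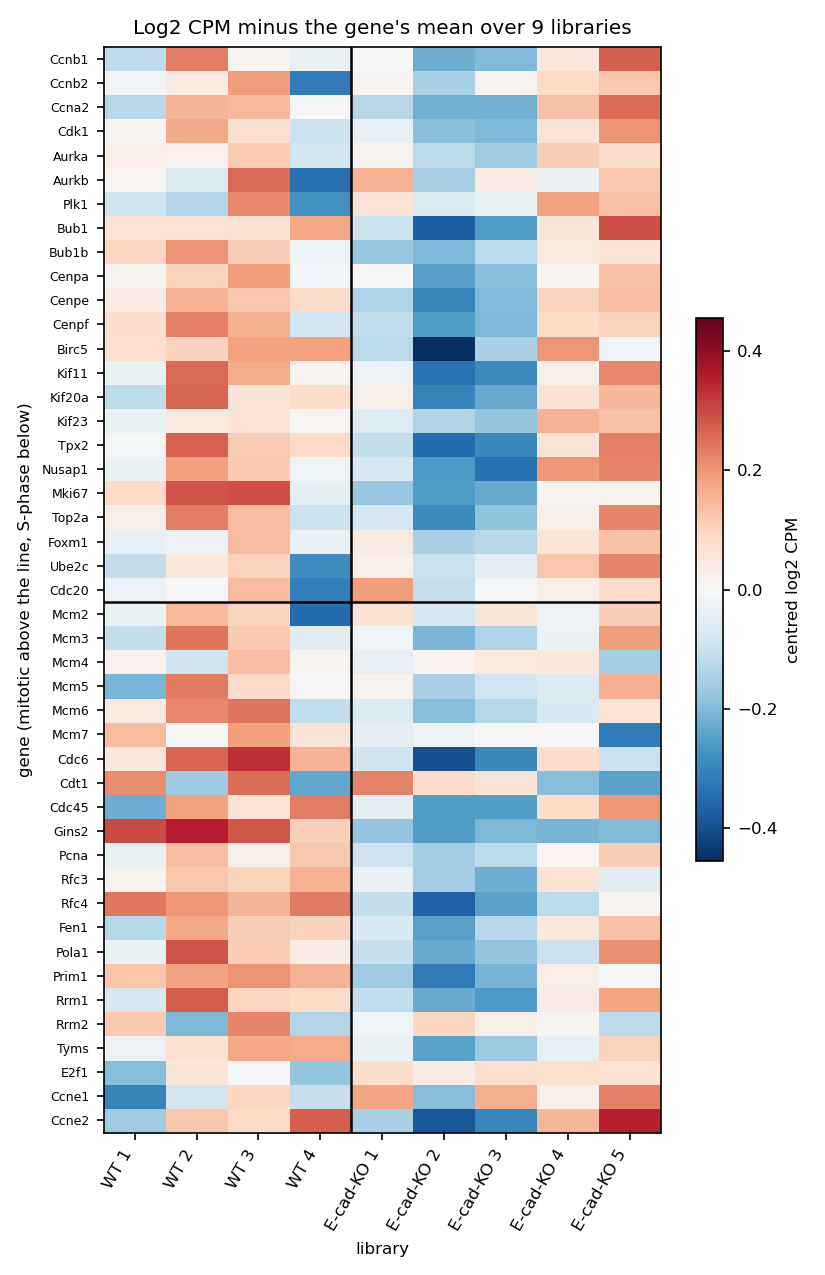
Log2 CPM of each member (rows, mitotic above the line and S-phase below) minus its mean over the 9 libraries (columns, WT left of the line). The columns of E-cad-KO 2 and 3 are mostly blue (low), those of WT 2 and WT 3 mostly red (high), and Gins2 is red in the 4 WT libraries and blue in the 5 E-cad-KO libraries.

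Spread within groups gives the scale for these differences. The median SD of log2 CPM within a group was 0.15 for members and 0.19 for all tested genes. WT had the larger SD for 6 of 23 mitotic genes (26.1%) and 10 of 22 S-phase genes, against 62.3% of all tested genes.

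Further genes of the pathway were counted from wider lists in the same 9 libraries. E-cad-KO 2 and 3 again had the lowest scores for other replication and other mitosis genes. The shares below are therefore not separate observations from those of the members. Of 52 other replication genes, 44 had a negative log2 fold change (84.6%, against 52.0% of all tested genes; median -0.12). At an unadjusted p under 0.05, 12 were lower (23.1%, against 7.99%) and 0 higher. The one called (1.92%, against 0.503% called lower) was Rfc2, also a subunit of replication factor C, which averaged 65.3 ± 2.03 CPM over the WT libraries and 55.5 ± 1.22 CPM over the E-cad-KO libraries (SD; n = 4, n = 5; log2 fold change -0.23, SE 0.05, adjusted p = 0.0405) and overlaps Lat2 on the other strand. Next by p were the thymidine kinase gene Tk1 (-0.32, SE 0.08, adjusted p = 0.0799), the primase partner gene Prim2 (-0.21, SE 0.06, adjusted p = 0.124) and Cdc7, a kinase that fires origins (-0.34, SE 0.11, adjusted p = 0.149). The remaining subunits of replication factor C, named after their values were seen, stood at -0.10 (Rfc1) and -0.05 (Rfc5).

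Of 80 other mitosis genes, 65 were negative (81.2%, against 52.0% of all tested genes; median -0.11). At an unadjusted p under 0.05, 9 were lower (11.2%, near the 7.99% of all tested genes) and 0 higher. Cenpm, a kinetochore component, was the one called (1.25%, against 0.503% called lower and 1.41% in either direction) and averaged 12.8 ± 1.12 CPM over the WT libraries and 8.84 ± 0.506 CPM over the E-cad-KO libraries (SD; n = 4, n = 5; log2 fold change -0.53, SE 0.09, adjusted p = 0.0307). Spc24, of the kinetochore's microtubule-binding complex, stood at -0.34 (SE 0.09, adjusted p = 0.0802), Cdca3 at -0.28 (SE 0.09) and the separase gene Espl1 at -0.25 (SE 0.09).

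Regulators of cycle entry and exit were not one-sided: 23 of 43 were negative (53.5%, against 52.0% of all tested genes), with a median of -0.02. At an unadjusted p under 0.05, 3 of 43 were higher, against 8.74% of all tested genes, and 2 lower (4.65%, against 7.99%). Chek2, a checkpoint kinase of the DNA damage response, was the one called (2.33%, against 0.503% called lower and 1.41% in either direction) and averaged 26.0 ± 1.72 CPM over the WT libraries and 20.3 ± 0.995 CPM over the E-cad-KO libraries (SD; n = 4, n = 5; log2 fold change -0.36, SE 0.07, adjusted p = 0.0356). Rbl2 and E2f4, the pocket protein and E2F of the DREAM repressor complex, stood at 0.19 (SE 0.06, adjusted p = 0.144) and 0.17 (SE 0.05, adjusted p = 0.158) and were not called. For Rbl2 and E2f4 every E-cad-KO library lay above every WT library. Of the 43 regulators 2 were higher without overlap, beside 740 of 17289 tested genes, and 1 was lower without overlap. Rbl2 and E2f4 both lie on chromosome 8, E2f4 1.31 Mb from Cdh1. For Lin9, Lin37, Lin52 and Lin54, genes of the MuvB core, the groups overlapped and none was called. The CDK inhibitor gene Cdkn2b stood at 0.26 (SE 0.09, adjusted p = 0.181).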

How the data were processed

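The table deposited by the authors gives unnormalized counts of reads for each gene in each sample. The authors used Bowtie2, TopHat2 and HTSeq on GRCm38, per the submitters' processing notes, on libraries from a stranded mRNA kit, per the labels' protocols. For versions, strand setting and annotation release the entry is: not given in the sources used here. Members and lists were chosen with earlier results of these data known.

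Of 51912 genes, 51633 had a symbol. Positions, overlaps and lengths came from GENCODE M21 (GRCm38). Testing used edgeR 4.0.16 and its quasi-likelihood fit (R 4.3.3; TMM, robust dispersions, filterByExpr, group only, Benjamini-Hochberg over 17289 genes, two-sided), and called genes are those with an adjusted p under 0.05. SE is the log2 fold change divided by the root of the F statistic. CPM were scaled by TMM, so that 1 CPM was 44.2 to 64.3 counts. Scores use log2 CPM with a prior count of 2. Every adjusted p is edgeR's unless another tool is named. Alternatives were other size factors and filters, DESeq2 1.42.0, limma-voom (limma 3.58.1), a replicate block, libraries left out, and marker scores as covariates. Routines were tested on simulated data. No 2 libraries agreed within sampling noise (smallest chi-square per degree of freedom 13.7, between E-cad-KO 2 and 3). E-cad-KO 4 and 5 were also close (16.2), while E-cad-KO 2 or 3 against 4 or 5 gave 40.7 to 68.6. Pairs of WT libraries gave 28.8 to 174. Whether the close libraries share an origin is not given in the labels, so they may not be independent.

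Given with every library's value, besides genes picked out in the text, were Mki67, Top2a, Pcna, Mcm2, called members and, per class, the 3 smallest p and the most extreme values. Cdc6 was added after its values were seen.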

Additional observations from a re-analysis of the deposited data

Results flagged for a closer look

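Cdh1 in E-cad-KO 2, at 118.3 CPM, stood apart from the other 4 E-cad-KO libraries: its gap to the nearest was 0.79 of the group's range. The same library had the lowest mitotic and S-phase scores. Of 28 groups of values checked in this way, for Cdh1, the scores and 11 members, this was the one that stood apart, and chance marks about 1 in 20.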

How the results depend on the processing

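Gins2 and Rfc4 were both called with other size factors, other filters, limma-voom, DESeq2 and either marker score as covariate, and the medians of both classes stayed negative in all 19 alternatives. The genes called numbered 1206 with DESeq2, 511 with limma-voom, 79 without WT 1 and WT 4, 1210 with the macrophage score and 625 with the fibroblast score as covariate. With 1 library left out they numbered 9 (without WT 3) to 334 (without WT 4). S-phase members called numbered 4 with DESeq2 and with the macrophage score (Cdc6 and Prim1 added), 1 without WT 1 and WT 4 (Gins2), and 0 to 1 with 1 library left out. Mitotic members called numbered 1 with DESeq2 (Mki67) and 0 in the other 18 alternatives. The mitotic median ran from -0.03 (without E-cad-KO 3) to -0.18 (with the replicate block). It was -0.06 without WT 2, -0.05 without E-cad-KO 2, -0.17 without E-cad-KO 5 and -0.17 without WT 1 and WT 4. The S-phase median ran from -0.08 (without E-cad-KO 2) to -0.18 (without WT 1). Mcm2 turned negative with limma-voom (-0.0211), without WT 1 and WT 4 (-0.0942) and, with 1 library left out, ran from -0.0466 (without WT 4) to 0.1092 (without WT 2). With promoters cut to 150 bases before the start, the member counts were the same, while the shares of all promoters went to 11.2% (CHR) and 1.66% (E2F).

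With the replicate block, 0 genes and 0 members were called by edgeR, with 2418 genes and 14 members at an unadjusted p under 0.05, and medians of -0.18 (mitotic) and -0.17 (S-phase). Same-numbered samples did not all deviate together (correlations -0.32, 0.23, -0.03 and 0.28), so the number is not taken as a pairing. Depth did not limit the members, all above 500 counts in every library.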
